A study of Mus musculus with 6 samples.

Results

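The integrated stress response and the unfolded protein response were followed through 10 genes in granulosa cells (GCs): *Atf4*, *Ddit3*, *Trib3*, *Chac1*, *Asns*, *Ppp1r15a*, *Xbp1*, *Hspa5*, *Herpud1* and *Dnajb9*. They were chosen by name, with earlier results of these data known. They took up 11 of the 54532 rows of the expression table, since *Ddit3* had 2 rows. The GCs came from female ICR mice aged 3 weeks, all given 5 IU of PMSG (a gonadotropin that drives follicle growth). After 22 h the mice received an intraperitoneal injection of PBS or of 120 mg/kg cyclophosphamide (CTX), a chemotherapeutic that alkylates DNA, and GCs were taken 6 h later. There were 3 samples per group, and each pooled the GCs of 3 mice, so the p-values measure the spread among pools and not among animals. RNA was quantified as FPKM, that is, fragments relative to gene length and to depth.

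In the integrated stress response, kinases that sense amino acid shortage, ER stress, heme shortage or double-stranded RNA phosphorylate the translation factor eIF2. General translation slows, while the mRNA of ATF4 is translated better, and ATF4 switches on genes of amino acid supply, redox balance and, through CHOP, cell death. The unfolded protein response begins in the ER when chaperone capacity is exceeded, and works through PERK (which feeds into eIF2), IRE1 (which splices the *Xbp1* mRNA) and ATF6. Rapidly dividing GCs of antral follicles secrete large amounts of inhibin and other glycoproteins, so ER folding capacity is in constant use there.

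The main result was uneven. *Ppp1r15a*, *Ddit3*, *Dnajb9* and *Atf4* rose after CTX, by 2.38-, 1.77-, 1.48- and 1.45-fold between the group means. *Hspa5*, *Xbp1*, *Asns*, *Trib3* and *Herpud1* did not pass the test, and *Chac1* was too low to be tested. Thus 4 of the 9 rows tested were called higher at an adjusted p below 0.05, beside 1.40% of all genes tested, and 0 were called lower, beside 0.360%. Only *Ppp1r15a* was also changed more than 2-fold and so met the definition of a DEG, as did 0.802% of all genes in the upward direction. The calls of *Ddit3*, *Dnajb9* and *Atf4* were narrow, with adjusted p of 0.0310, 0.0282 and 0.0349. Leaving out PBS replicate 1, 2 or 3, or CTX replicate 3, kept the call of *Ppp1r15a* alone. With limma's voom on the rebuilt reads, 4 members were again called higher and 0 lower, beside 211 and 66 of all 14463 genes tested. At an unadjusted p under 0.05 the counts were 5 and 0, beside 10.5% and 9.10% of all genes. The median log2 fold change of the 9 members was 0.34, beside -0.01 over the 14463 genes tested.

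The promoters were read to show where the known response elements of these pathways lie. All 10 genes matched an entry of the RefSeq promoter table (GRCm38.p6), and the 250 bases before the start were searched on both strands in them and in all 32851 promoters. The CARE, TGATGNAA, which C/EBP-ATF dimers bind, was found in 3.452% of all promoters and in those of *Chac1*, *Asns* and *Herpud1*. The CRE, TGACGTCA, was found in 1.546% of all promoters and in that of *Ppp1r15a*. The ERSE, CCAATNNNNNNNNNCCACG, which ATF6 binds with NF-Y, was found in 0.1126% and in that of *Hspa5*. The ERSE-II, ATTGGNCCACG, was found in 0.03044% and in that of *Herpud1*, and the UPRE, TGACGTGG, in 0.5631% and in no member. The CARE and the CRE differ in letters and could not share a match, while the ERSE and ERSE-II end alike and the CRE and UPRE begin alike. A match shows letters only, and its absence says nothing of the factor.

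The stretches are printed 5′ to 3′ on the strand of the gene, with matched elements in capitals. They show the 3 members called higher that have a stretch clear of exons of protein-coding transcripts, followed by the members that carry an element. Parts inside such exons are left out beyond 30 bases around an element, and no stretch of *Dnajb9* is shown because its whole window lay in an exon. Also left out are the exon-free parts of the *Asns* and *Hspa5* windows and the far part of the *Ppp1r15a* window. The start is that of RefSeq, and the *Asns* and *Hspa5* elements lie inside annotated exons of the same genes. The *Ddit3* stretch crosses exons of the non-coding transcripts of *Gm4189* on the opposite strand.
Ppp1r15a, chr7:45526269-45526329, minus strand, CRE at bases 12 to 5 before the start: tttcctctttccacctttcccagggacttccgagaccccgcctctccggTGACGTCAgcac
Atf4, chr15:80254934-80255183, plus strand, no element searched: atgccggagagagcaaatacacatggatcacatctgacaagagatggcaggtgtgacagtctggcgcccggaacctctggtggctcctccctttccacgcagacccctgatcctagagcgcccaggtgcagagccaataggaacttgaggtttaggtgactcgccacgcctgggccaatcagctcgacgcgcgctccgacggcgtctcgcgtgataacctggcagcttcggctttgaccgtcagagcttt
Ddit3, chr10:127290543-127290773, plus strand, no element searched: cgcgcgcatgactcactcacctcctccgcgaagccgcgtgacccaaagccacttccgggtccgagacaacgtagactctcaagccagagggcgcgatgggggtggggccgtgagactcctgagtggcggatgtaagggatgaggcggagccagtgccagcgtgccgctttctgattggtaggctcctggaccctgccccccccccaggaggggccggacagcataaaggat
Herpud1, chr8:94386179-94386428, plus strand, CARE at bases 112 to 105 and ERSE-II at bases 52 to 42 before the start: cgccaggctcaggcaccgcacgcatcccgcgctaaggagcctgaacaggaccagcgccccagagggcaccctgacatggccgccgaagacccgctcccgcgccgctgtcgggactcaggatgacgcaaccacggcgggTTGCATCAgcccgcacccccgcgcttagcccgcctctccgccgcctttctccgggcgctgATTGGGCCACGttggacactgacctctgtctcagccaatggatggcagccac
Chac1, chr2:119350992-119351228, plus strand, CARE at bases 193 to 186 before the start: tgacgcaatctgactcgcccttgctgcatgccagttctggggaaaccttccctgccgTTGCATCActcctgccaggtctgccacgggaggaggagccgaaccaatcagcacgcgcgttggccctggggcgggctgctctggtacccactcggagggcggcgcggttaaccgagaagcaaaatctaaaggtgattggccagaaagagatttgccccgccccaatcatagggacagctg
Asns, chr6:7693214-7693243, minus strand, CARE at bases 23 to 16 before the start: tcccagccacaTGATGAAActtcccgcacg
Hspa5, chr2:34772020-34772049, plus strand, ERSE at bases 65 to 47 before the start: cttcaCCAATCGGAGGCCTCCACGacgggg
Of the 4 genes that rose, *Ppp1r15a* was the only one whose window held an element searched. The CARE lay in the windows of *Asns* and *Herpud1*, which were tested and not called, and of *Chac1*, which was too low to be tested.

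Rebuilt reads on genes numbered from 16005869 to 18455011 per sample, so that for a gene 1 kb long 3 reads equalled 0.164 to 0.185 FPKM. CTX replicate 2 stood apart before any member was considered. Its score on the first principal component, which held 46.8% of the variance, was 74.7, and those of the other samples lay between -26.6 and 13.2. In it *Cyp11a1*, the side-chain cleavage enzyme of steroid synthesis, was at 14.4 FPKM against 486 to 727 in the other 5 samples. *Cyp19a1*, the aromatase of GCs, was at 6.61 FPKM there and at 32.5 to 62.4 elsewhere. For the members and the lists of the wider pathway, calls are therefore also given without that sample where they differ. For the immediate-early, heat-shock and marker genes no fit without it is given. The summed level of 8 granulosa markers was 11396 to 12599 FPKM in PBS and 10197 to 10864 in CTX. Most of that sum was *Inha*, at 9205 to 10402 FPKM in PBS and 8556 to 9180 in CTX. Apart from *Inha* and *Amh*, each marker was lowest in CTX replicate 2, with *Inhba* at 211, *Foxl2* at 76.9 and *Fshr* at 42.8 FPKM. *Amh* was highest there, at 179 FPKM. In such bulk RNA, fewer cells of a type and less RNA per cell cannot be told apart.

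**Figure D1:**
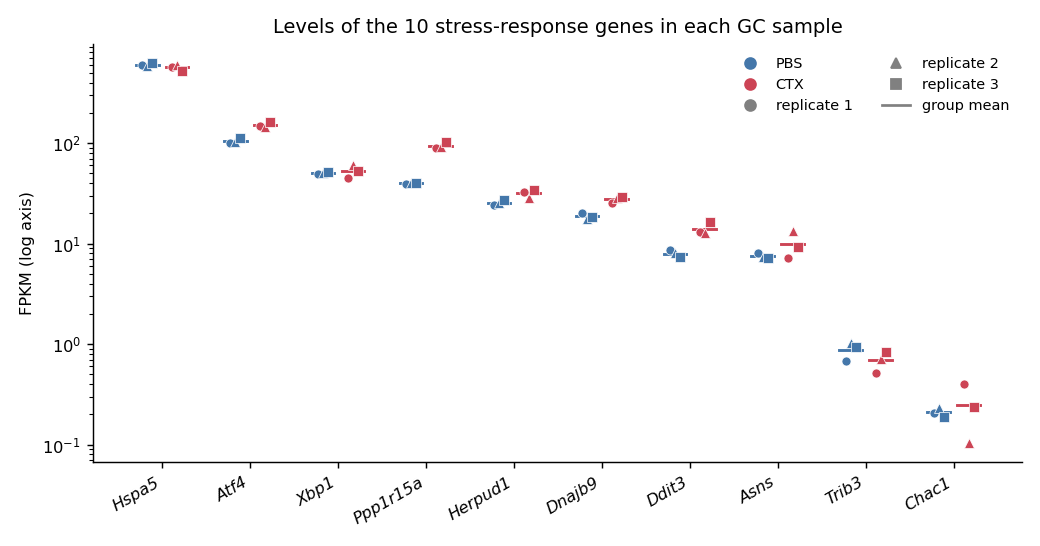
FPKM of the 10 genes in each GC sample, on a log axis, ordered by the PBS mean; blue marks are PBS samples, red marks CTX samples, shapes give the replicate and bars the group mean. *Ppp1r15a* sits at 39.0 to 40.4 in PBS and 90.0 to 102 in CTX, while *Hspa5* overlaps between the groups near the top and *Chac1* lies at or below 0.404.

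The levels of the members spanned from *Hspa5*, at 601 ± 24.5 FPKM in PBS (SD, n = 3), to *Chac1*, at 0.209 ± 0.0225. In PBS the order of means was *Hspa5*, *Atf4*, *Xbp1*, *Ppp1r15a*, *Herpud1*, *Dnajb9*, *Ddit3*, *Asns*, *Trib3* and *Chac1*. Neighbours in that order did not overlap between samples, except *Ddit3* and *Asns*. After CTX *Ppp1r15a* stood above *Xbp1*, with no overlap between the 2 genes, and the neighbours that overlapped were *Herpud1* with *Dnajb9* and *Ddit3* with *Asns*. The PBS mean of *Hspa5* was above that of 99.8% of the genes tested, that of *Atf4* above 97.1%, and that of *Trib3* above 10.4%.

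Gene spans are given on GRCm38 (mm10). *Atf4* (ENSMUSG00000042406, chr15:80255184-80257541, plus strand) encodes the bZIP transcription factor at the centre of the integrated stress response. Its PBS values were 99.5, 103 and 113 FPKM, and its CTX values were 150, 144 and 163. The groups did not overlap, with all CTX samples higher. The log2 fold change was 0.53 (SE 0.082, 95% interval 0.33 to 0.73, adjusted p = 0.0349). That call was narrow: 8 of 12 other ways of fitting kept it, with adjusted p from 0.000224 to 0.138. It was lost when any sample other than CTX replicate 2 was left out, with a highest adjusted p of 0.195, although the log2 fold change stayed between 0.48 and 0.58. ATF4 is controlled mainly through translation, which mRNA levels do not show.

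*Ddit3* encodes CHOP, the bZIP factor that ATF4 induces and that is tied to cell death under lasting ER stress. The row used (ENSMUSG00000025408, chr10:127290774-127296288, plus strand) read 8.55, 8.02 and 7.32 FPKM in PBS and 13.1, 12.8 and 16.4 in CTX. The groups did not overlap, and CTX replicate 3 was the highest. This gave a log2 fold change of 0.81 (SE 0.12, 95% interval 0.52 to 1.10, adjusted p = 0.0310). The call was kept in 9 of 12 other fits and lost in 4 of the 6 with a sample left out, where the adjusted p reached 0.165. It was kept without CTX replicate 1 and without CTX replicate 2. The last 68 bases overlap *Mars* on the opposite strand, which was at 24.5 to 25.9 FPKM in PBS and 23.9 to 26.0 in CTX. The second *Ddit3* row (ENSMUSG00000116429), a model with a length of 105 bases inside the same gene, was listed at 0 in all 6 samples and was not tested.

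*Ppp1r15a* (ENSMUSG00000040435, chr7:45522916-45526268, minus strand) encodes GADD34, which recruits protein phosphatase 1 to remove the phosphate from eIF2 and so restarts translation. It is named for its induction by growth arrest and DNA damage. Its values were 39.0, 40.4 and 39.7 FPKM in PBS, and 90.0, 91.7 and 102 in CTX. The PBS samples differed little, with a coefficient of variation of 1.86%, and the CTX samples all lay far above them. The log2 fold change of 1.25 (SE 0.069, 95% interval 1.08 to 1.41, adjusted p = 0.00104) was the largest among the members. It was called in all 12 other fits and in all 6 fits with a sample left out, with adjusted p from 4.99e-06 to 0.0310. The last 717 bases of the gene overlap *Tulp2* on the opposite strand. *Tulp2* was at 3.21 to 3.90 FPKM in PBS and at 0.644 to 3.54 in CTX, far below *Ppp1r15a*, and whether counting used the strand is not given in the sources used here. The constitutive partner in the same task, *Ppp1r15b* (CReP), had a smaller change, with 19.9, 19.0 and 17.4 FPKM in PBS and 25.7, 25.6 and 26.5 in CTX. Its log2 fold change was 0.47 (adjusted p = 0.0328), a call that was lost in 8 of 18 other settings, among them each left-out sample except CTX replicate 2, with adjusted p up to 0.174.

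**Figure D2:**
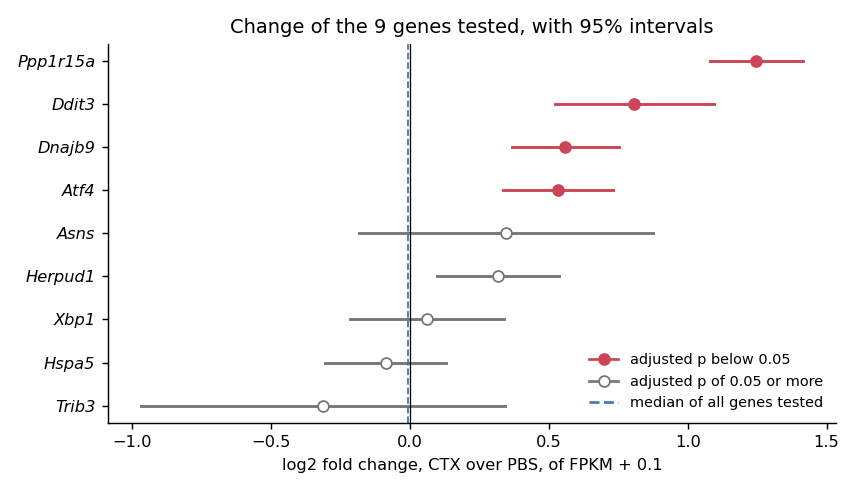
Log2 fold change, CTX over PBS, of FPKM + 0.1 for the 9 members tested, with 95% intervals from limma; filled red points were called at an adjusted p below 0.05, open grey points were not, and the dashed line is the median of all genes tested. *Ppp1r15a* at 1.25 lies right of every other interval, although its own interval overlaps that of *Ddit3*, and *Hspa5* and *Trib3* lie left of 0.

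*Asns* (ENSMUSG00000029752, chr6:7675169-7693254, minus strand) makes asparagine from aspartate and is a standard readout of ATF4. It read 8.10, 7.44 and 7.18 FPKM in PBS, and 7.16, 13.4 and 9.27 in CTX. CTX replicate 1 lay below all PBS samples and CTX replicate 2 far above them, so the groups overlapped. The log2 fold change was 0.34, with a 95% interval of -0.19 to 0.87 (adjusted p = 0.411), and it was 0.11 without CTX replicate 2. *Trib3* (ENSMUSG00000032715, chr2:152337422-152344032, minus strand), a pseudokinase that ATF4 and CHOP induce, was at 0.687, 1.03 and 0.930 FPKM in PBS and at 0.519, 0.716 and 0.841 in CTX. These values rested on 20 to 40 reads per sample, and the log2 fold change of -0.31 had an interval from -0.97 to 0.34 (adjusted p = 0.535). *Chac1* (ENSMUSG00000027313, chr2:119351229-119354381, plus strand), which degrades glutathione and is a further ATF4 target, was below the level needed for the test. It had 0.206, 0.233 and 0.189 FPKM in PBS and 0.404, 0.103 and 0.239 in CTX, from 3 to 12 reads, and a change was not detectable at this depth.

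*Hspa5* (ENSMUSG00000026864, chr2:34771970-34777547, plus strand) encodes BiP, the chief HSP70 chaperone of the ER and the standard readout of ER stress. Its PBS values were 597, 579 and 628 FPKM, and its CTX values were 571, 600 and 528. The samples overlapped, and CTX replicate 3 was the lowest of all. The log2 fold change was -0.09 with a 95% interval of -0.31 to 0.13 (adjusted p = 0.600), so the upper bound of the interval was 0.13 for a gene with 39999 to 45023 reads per sample. *Xbp1* (ENSMUSG00000020484, chr11:5520659-5525893, plus strand), the factor that IRE1 activates by splicing its mRNA, read 48.9, 49.9 and 51.1 FPKM in PBS and 44.5, 60.4 and 52.9 in CTX. Its CTX samples lay on either side of the PBS samples, and the log2 fold change was 0.06 (95% interval -0.21 to 0.34, adjusted p = 0.780), or -0.043 without CTX replicate 2. Gene-level FPKM adds the spliced and unspliced forms of *Xbp1*, so splicing could not be read from these values.

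*Dnajb9* (ENSMUSG00000014905, chr12:44205559-44210326, minus strand) encodes ERdj4, an ER co-chaperone of BiP that is induced by spliced XBP1. It read 20.1, 17.8 and 18.5 FPKM in PBS and 25.7, 28.7 and 28.8 in CTX. All CTX samples were above all PBS samples. The log2 fold change was 0.56 (SE 0.080, 95% interval 0.37 to 0.75, adjusted p = 0.0282). The call was kept in 10 of 12 other fits and lost in 4 of 6 with a sample left out, where the highest adjusted p was 0.165. As for *Ddit3*, it was kept without CTX replicate 1 or 2. *Herpud1* (ENSMUSG00000031770, chr8:94386438-94395377, plus strand), an ER membrane protein of ER-associated degradation, had values of 24.1, 25.3 and 27.0 FPKM in PBS and 33.0, 28.4 and 33.9 in CTX. The groups did not overlap, yet the log2 fold change of 0.32 (95% interval 0.10 to 0.53) had an adjusted p of 0.153. Without CTX replicate 2, its lowest CTX sample, the adjusted p was 0.0438. The first 535 bases overlap *Gm15890* on the opposite strand, which did not exceed 0.321 FPKM.

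In all, 5 of the 9 members tested had every CTX sample above every PBS sample, beside 15.0% of all genes tested, and 0 had every CTX sample below, beside 14.1%. Without CTX replicate 2 the counts were 5 and 1 (*Hspa5*), beside 19.3% of all genes in each direction. With 3 samples against 3, an exact two-sided permutation test of a single gene cannot go below p = 0.10, which *Atf4*, *Ddit3*, *Ppp1r15a*, *Dnajb9* and *Herpud1* reached.

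**Figure D3:**
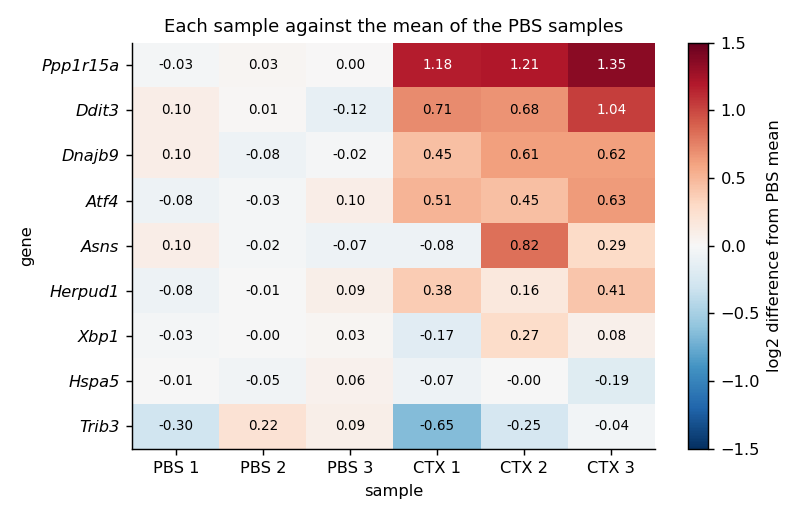
Log2 difference of each sample from the mean of the PBS samples, on log2(FPKM + 0.1), for the 9 members tested; columns are samples, rows genes, and red is above the PBS mean. The 3 CTX columns are red from *Ppp1r15a* (1.18, 1.21 and 1.35) to *Atf4* (0.51, 0.45 and 0.63), while *Asns* ranges from -0.08 in CTX replicate 1 to 0.82 in CTX replicate 2.

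Ratios within a sample were compared for 4 pairs, picked after the values had been seen. The log2 ratio of *Dnajb9* to *Hspa5* was -4.99 ± 0.0959 in PBS and -4.35 ± 0.144 in CTX (SD, n = 3), a difference of 0.65. For *Ppp1r15a* over *Ppp1r15b*, the log2 ratio went from 1.08 ± 0.109 to 1.86 ± 0.0674, a difference of 0.78. *Ddit3* over *Atf4* differed by 0.27 between the groups, and each of these 3 had p = 0.10 by the exact permutation test, the smallest it can give (0.133 after adjustment over the 4 pairs). *Atf4* over *Asns* differed by 0.19, with an exact p = 0.60 and CTX replicate 2 below all PBS samples.

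The wider pathway was taken from 10 lists with 136 genes, of which 130 were tested. Among these, 6 were called higher and 0 lower, beside 1.40% and 0.360% of all genes tested. With voom the counts were 6 and 2, beside 211 and 66 of all 14463 genes tested. At an unadjusted p under 0.05 they were 10 (7.69%) and 22 (16.9%), beside 10.5% and 9.10% of all genes tested. The 6 called higher were *Ppp1r15b*, *Atf3*, *Gdf15*, *Bbc3*, *Sesn2* and *Tnfrsf10b*. *Atf3*, a bZIP repressor induced by many stresses, went from 2.42, 3.67 and 2.67 FPKM to 27.1, 18.8 and 34.1 (log2 fold change 3.13, adjusted p = 0.00343, or 0.0527 with the replicate number as a block). It was the only one called of the 5 factors around ATF4 and CHOP, and the lowest of them was *Cebpg*, a dimer partner of ATF4, at -0.37 (adjusted p = 0.0868).

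Of the 9 other targets of ATF4 or CHOP tested, 4 were called higher, beside 1.40% of all genes tested. *Gdf15*, a secreted stress cytokine, went from 0.545, 0.707 and 0.733 FPKM to 11.5, 22.6 and 18.8 (log2 fold change 4.50, adjusted p = 0.00119). *Bbc3*, the BH3-only killer protein PUMA, had values of 2.77, 2.77 and 2.12 in PBS and 20.2, 14.8 and 22.3 in CTX (2.84, adjusted p = 0.00153). *Sesn2*, a leucine sensor that restrains mTORC1, rose by 2.04 (adjusted p = 0.00399), and *Tnfrsf10b*, the death receptor for TRAIL, by 1.27 (adjusted p = 0.0116). The *Tnfrsf10b* call was lost without PBS replicate 1, 2 or 3, without CTX replicate 3 and with the replicate number as a block, with adjusted p up to 0.109. These 4 genes are textbook targets of p53 as well, so they are not readouts of ATF4 alone. The lowest value in that list was -0.48 for *Stc2*, a secreted glycoprotein (adjusted p = 0.568), and its sign turned without CTX replicate 2, to 0.042.

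Of 16 ATF4 targets for amino acid synthesis and transport, 0 passed the test in either direction by limma or by voom (3 higher and 2 lower at an unadjusted p under 0.05), and the median log2 fold change was -0.09. It ran from -0.71 for the transporter *Slc1a4* (adjusted p = 0.385) to 0.46 for *Cth*, which makes cysteine (adjusted p = 0.126). *Slc7a5*, a leucine transporter, and *Shmt2*, a mitochondrial enzyme that converts serine to glycine, were picked after their values were seen. They lay just short of the threshold on opposite sides, at 0.36 (adjusted p = 0.0594) and -0.34 (adjusted p = 0.0615). Without CTX replicate 2, *Shmt2* was called lower (-0.37, adjusted p = 0.0352). With so few genes and 1.40% and 0.360% of all genes called, a count of 0 is close to the background and is no result about the list. Of the 20 cytosolic tRNA synthetases, also 0 passed by limma or voom (1 higher and 1 lower unadjusted), within a range of -0.24 for *Aars* to 0.24 for *Kars*. Of 13 genes for eIF2 kinases, eIF2, eIF2B and the constitutive phosphatase subunit, only *Ppp1r15b* was called, and the lowest was *Eif2ak3*, which encodes PERK, at -0.19 (adjusted p = 0.241).

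Of 22 ER chaperones and folding enzymes besides *Hspa5*, 17 had a log2 fold change below 0 and 5 above. By limma 0 were called in either direction, and the list as a whole was not tested. At an unadjusted p under 0.05, 10 were lower and 0 higher, beside 9.10% and 10.5% of all genes tested. For 11 of the 22 all CTX samples were below all PBS samples, and for 0 above, beside 14.1% and 15.0% of all genes tested. The median log2 fold change was -0.22, and the summed level was 3737 to 4021 FPKM in PBS and 3305 to 3608 in CTX. The lowest was *Sdf2l1*, a partner of ERdj co-chaperones, with 114, 115 and 125 FPKM in PBS and 91.1, 77.4 and 88.3 in CTX (-0.46, adjusted p = 0.0634). *Creld2*, an ER protein induced by ATF6 and picked after its values were seen, was at -0.42 (adjusted p = 0.0608). By voom both were called lower. Counts of calls in this list depended on the fit and ran from 0 to 14, the last with sample weights that rested almost wholly on CTX replicate 3. Without CTX replicate 2, *Sdf2l1* alone was called, 13 of 22 did not overlap on the lower side (19.3% of all genes), and the median was -0.18. The highest was *Ero1lb*, an oxidase of the ER, at 0.10 (adjusted p = 0.621).

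In the other ER lists, 0 genes were called by limma or voom with all samples. The 8 tested sensors, ATF6-type factors and proteases ran from -0.34 for *Ern1*, which encodes IRE1 (adjusted p = 0.191), to 0.32 for *Creb3l1* (adjusted p = 0.612), with 0 higher and 2 lower at an unadjusted p under 0.05. The 16 genes of ER-associated degradation ran from -0.48 for *Wfs1* to 0.58 for *Derl3*, with 0 higher and 4 lower unadjusted. In this list *Sel1l*, the adaptor of the HRD1 ubiquitin ligase, was called lower without CTX replicate 1. *Derl3* was at 151 FPKM in CTX replicate 2 and at 50.5 to 82.6 in the other samples. The 17 genes of translocation and export ran from -0.37 for *Srprb*, a subunit of the signal recognition particle receptor, to 0.11 for *Sec24d* (0 higher and 1 lower unadjusted). The 4 tested mRNAs that IRE1 cuts in other mouse cells ran from -0.12 for *Pdgfrb* to -0.09 for *Col6a1*, with 0 at an unadjusted p under 0.05.

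**Figure D4:**
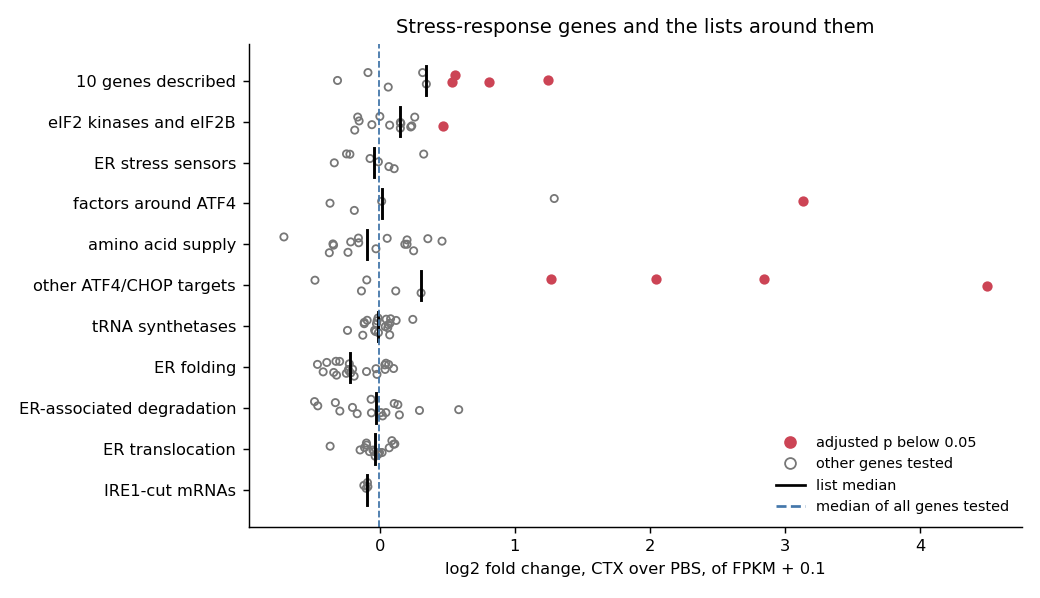
Log2 fold change, CTX over PBS, of the members and of the genes of 10 lists; each point is a gene tested, filled red points were called at an adjusted p below 0.05, black bars are list medians and the dashed line is the median of all genes tested. The 6 called list genes lie between 0.47 and 4.50, and the ER folding list has its median at -0.22.

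The genes whose profile over the 6 samples was nearest to each member that rose were sought among 8056 genes with a mean of at least 5 FPKM, by the root mean square difference of log2 values set to the PBS mean. Nearest to *Atf4* were *Siva1* (0.0541), *Atg101* (0.0594) and *Tmem11* (0.0655). *Ddit3* was followed most closely by *Skil* (0.0941), *Midn* (0.0991) and *Per1* (0.0997). For *Ppp1r15a* these were *Jund* (0.0818), *Ier3* (0.0819) and *Klf9* (0.103), with *Jund* at 211 FPKM in PBS and 477 in CTX. *Dnajb9* had *Mcl1* (0.0497), *Mex3d* (0.0521) and *Rb1* (0.0591). This is a description of likeness over 6 samples in 2 groups, and nothing on shared control follows from it.

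Immediate-early, heat-shock and cell type marker genes were measured in the same samples. Their counts of calls stand beside 1.40% called higher among all genes tested. Of 10 immediate-early genes, 9 were called higher, with a median log2 fold change of 1.68 and a sum of 1744 to 1875 FPKM in PBS and 4943 to 5616 in CTX. Of 10 heat-shock genes, 1 was called, *Hspa8* (log2 fold change 0.52, adjusted p = 0.0353), and the sums were 770 to 815 and 938 to 1003 FPKM. At an unadjusted p under 0.05, 4 heat-shock genes were higher and 0 lower, beside 10.5% and 9.10% of all genes tested. By voom 2 were called higher, beside 211 of all 14463 genes tested. In 6 of the 10 every CTX sample was above every PBS sample, beside 15.0% of all genes tested. Of 9 leukocyte markers, 4 were tested and *Cd14* was called higher (1.29, adjusted p = 0.0347). In 3 of the 4 tested every CTX sample was above every PBS sample, beside 15.0% of all genes tested. The sum of the 9 leukocyte markers was 17.7 to 20.3 FPKM in PBS and 22.5 to 60.2 in CTX, highest in CTX replicate 2. The pan-leukocyte marker *Ptprc* was at 0.0640 to 0.0983 FPKM in all samples, and *Cd3e* was at 0 in PBS replicate 3. Of the 8 granulosa markers none was called by limma or by voom. At an unadjusted p under 0.05, 3 were lower and 0 higher, beside 9.10% and 10.5% of all genes tested. For 6 of them all CTX samples were below all PBS samples, beside 14.1% of all genes tested.

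Theca and interstitial, endothelial, oocyte and erythroid markers had 4, 1, 5 and 5 genes tested and 0 called by limma, by voom or at an unadjusted p under 0.05. Their sums in PBS and CTX were 581 to 600 and 23.2 to 762 FPKM for theca and interstitial, and 4.54 to 5.45 and 1.79 to 4.16 for endothelial markers. They were 29.5 to 59.8 and 39.1 to 72.0 for oocyte markers, and 319 to 454 and 138 to 497 for erythroid markers. None of these markers was at 0 in all 6 samples. Most of the theca and interstitial sum was *Cyp11a1*, at 544 to 564 FPKM in PBS and 14.4 to 727 in CTX. *Cyp17a1* was at 30.8 to 34.4 FPKM in PBS and 1.25 to 29.6 in CTX, lowest in CTX replicate 2. In that sample *Ptch1* was at its highest, 6.55 FPKM, and *Insl3* was at 0.814 against 0.270 to 0.396 in PBS. The part of these marker groups in the members' changes was not tested.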

How the data were processed

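RNA-seq of GCs was done by the authors, with 3 PBS and 3 CTX samples assigned from their labels. The authors deposited FPKM values per gene. The submitters' processing notes name CASAVA 1.8, fastp, HISAT2 2.0.5, featureCounts 1.5.0-p3, DESeq2 1.20.0 and build mm10; strandedness and the annotation release are not given in the sources used here. The deposited table also holds the authors' group means and their own fold changes and p-values, which were not used.

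Multiplied by gene length, 100% of FPKM values were whole multiples of 1 read (tolerance 0.01), so reads were rebuilt. The FPKM values already carried a median-of-ratios scaling. CTX and PBS were compared on log2(FPKM + 0.1) by limma 3.58.1 (lmFit and eBayes with trend, R 4.3.3), for genes whose FPKM averaged 0.5 or more, with Benjamini-Hochberg adjustment over all of them. Fold changes on this scale are understated for low genes. Simulated data were used to test this fit. Gene spans were matched to GENCODE M21, and promoters were taken from RefSeq. Python 3.11.15 (pandas 2.3.3, NumPy 2.4.6) handled the tables and matplotlib 3.10.9 the figures.

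The members and lists were chosen with earlier results of these data known. All 10 members are named, and from each list the genes called and the largest rise and fall, and for each called member the 3 nearest profiles. Same-numbered samples hold different mice, and their deviations correlated at 0.0556, 0.0242 and 0.00581 across genes, so the replicate number was not used as a block. Alternatives were other pseudocounts, filters and scalings, sample weights, eBayes without trend, the block, voom on the rebuilt reads, and each sample left out.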

Additional observations from a re-analysis of the deposited data

How the results depend on the processing

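*Ppp1r15a* was called under all 18 other settings tried, and the count of members whose groups did not overlap stayed within 1.5 times its value under the 4 scalings and 6 left-out samples for which it was counted. The number of members called, 4 as reported, was 2 with no filter on low values, 7 (6 higher and *Hspa5* lower) with sample weights (arrayWeights), 1 with eBayes without trend, 1 when a change of more than 2-fold was also required, and 1 to 5 with a sample left out. The call that leaving out PBS replicate 1, 2 or 3 or CTX replicate 3 kept was *Ppp1r15a*, and without CTX replicate 2 *Herpud1* was added. Of the list genes, 6 as reported, 11 were called with quantile normalization, 65 with sample weights and 32 without adjustment of p. Over all genes, the 254 called became 5753 with sample weights and 70 to 526 with a sample left out, and the 139 DEGs became 657 and 58 to 205. The sample weights put 16.6 on CTX replicate 3 and 0.163 on CTX replicate 2, so those counts rest mostly on 1 sample.

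With the replicate number as a block, 53 genes, 50 DEGs, 1 member and 3 list genes were called. The numbers did not pair the samples, so these lost calls say nothing of the size of the effects.

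The log2 fold changes of genes that were not called changed sign in a few settings. Without CTX replicate 2 the value of *Xbp1* was -0.043, and with a sample left out its range was -0.043 to 0.18. The same range was -0.012 (without CTX replicate 1) to 0.71 for *Creb3l1*, -0.80 to 0.042 for *Stc2*, -0.0034 to 0.21 for *Sec24d*, -0.28 to 0.18 for *Pdgfrb* and -0.28 to 0.11 for *Col6a1*, and the sign of the last 4 turned without CTX replicate 2. With sample weights it was -0.074 for *Sec24d* and 0.14 for *Pdgfrb*. The cause was not tested. Rescaling moved the median of all genes to between -0.04 and -0.01. Depth limited *Chac1* and *Trib3*, and intervals cover the spread between these 3 pools only.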
